A study of Mus musculus with 14 samples.

Results

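The ribosomal protein genes of the cytosolic ribosome were described across 14 arrays of mouse lymph node lymphatic endothelium. Members were the array genes whose symbol in the scanner files is Rpl or Rps followed by a number and at most 1 letter, or Rplp0, Rplp1 or Rplp2. Pseudogenes carrying a -ps suffix and the Rps6k kinases fell outside this rule. It found 80 of 34797 genes, 49 of the large subunit (3 of them stalk genes) and 31 of the small subunit. Each gene was read from the brightest of its probes, and the 80 genes have 182 probes in all. The rule uses symbols and mean signal and no measured difference between groups, but it was set with earlier results of these data known.

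All samples were taken from lymph nodes of C57Bl/6 mice, with no age or sex in the labels. The LCM groups, 5 subcapsular and 5 medullary samples, held 50 CD31-stained cells each, cut by laser-capture microdissection from frozen sections also stained for F4/80. The FACS groups, 2 subcapsular and 2 medullary samples, held 1200 cells each, sorted from enzyme-digested nodes after staining for a lineage cocktail, CD73 and podoplanin with 7-AAD against dead cells. RNA of every sample was amplified by the SuperAmp route and labelled with Cy3, 1 array per sample. The labels call the samples biologic replicates but do not tie them to animals, so p-values measure the spread between these samples.

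A ribosome joins a small subunit, which reads the messenger RNA, to a large subunit, which forms the peptide bonds and holds the exit tunnel for the new chain. Nearly all ribosomal proteins are present once per ribosome, and their messenger RNAs are among the most abundant of a mammalian cell. Most of these messengers begin with a C followed by a run of C and T letters, the 5′ terminal oligopyrimidine tract, through which growth signals control their translation together.

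Start sites were read from RefSeq (build GRCm38.p6), which held a promoter entry for 59 of the 80 members. The motif searched was a C followed on the transcribed strand by further C or T letters, at least 5 letters in all. It began exactly at the annotated start in 13 of these 59 members (22.0%) and in 813 of the 27025 genes of the table (3.01%). Within 3 bases of the start the counts were 24 of 59 (40.7%) and 3651 of 27025 (13.5%). The 5 windows below, of 10 bases before and 20 after the start, are printed because they show the shared letters of genes measured here, with the run in capitals. They lie at chr4:86857348-86857377 (minus strand), chr2:39005112-39005141 (minus), chr7:4792955-4792984 (plus), chr16:33056472-33056501 (plus) and chr3:90213629-90213658 (minus).
Rps6: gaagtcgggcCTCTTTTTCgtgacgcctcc
Rpl35: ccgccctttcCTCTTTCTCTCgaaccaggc
Rpl28: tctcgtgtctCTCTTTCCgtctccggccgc
Rpl35a: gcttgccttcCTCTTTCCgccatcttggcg
Rps27: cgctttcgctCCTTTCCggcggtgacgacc

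Values are log2 signals over the 75th percentile of the array, so 0 is the level of the probe at that percentile. The scanner software called between 50.8% and 69.0% of probes well above background in the subcapsular LCM group, between 67.4% and 75.3% in the medullary LCM group, and between 66.3% and 79.0% in FACS. Of 11 lymphatic endothelial markers, Lyve1, Cdh5, Ackr4 (listed as Ccrl1) and Mmrn1 were above background on no medullary FACS array and Flt4 on no subcapsular FACS array. B cell markers were present in every group, 9 of 9 above background on at least 1 array. In LCM the arrays lay on 2 slides, with the 5 subcapsular arrays and medullary replicates 1 to 3 on slide 1. There, subcapsular replicates 1 to 4 lay in row 1, and subcapsular replicate 5 and the medullary replicates in row 2. The 4 FACS arrays lay on slide 2, the subcapsular ones in row 1 and the medullary ones in row 2, so that sinus and row cannot be told apart there.

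Ribosomal protein genes were among the brightest on every array. Their median stood between the 97.1 and 98.3 percentile of all 34797 genes, each read from its brightest probe, on all 14 arrays. No member probe was saturated. The member median was 6.55, 6.98, 5.66, 6.14 and 5.27 on subcapsular LCM replicates 1 to 5 and 4.63, 5.06, 5.40, 5.11 and 5.80 on the medullary ones. In FACS the subcapsular medians were 6.02 and 6.03, the medullary ones 4.78 and 5.17. Subcapsular medians were the higher ones in both isolations, with overlap in LCM and none in FACS. By percentile the LCM groups were nearly level, at means of 97.75 subcapsular and 97.56 medullary, with the highest LCM value, 98.08, on a medullary array. In FACS these means were 98.18 and 97.16. The group values were 6.12 ± 0.68 (SD, n = 5) and 5.20 ± 0.43 (SD, n = 5) in LCM, and 6.03 ± 0.01 (SD, n = 2) and 4.97 ± 0.27 (SD, n = 2) in FACS.

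**Figure D1:**
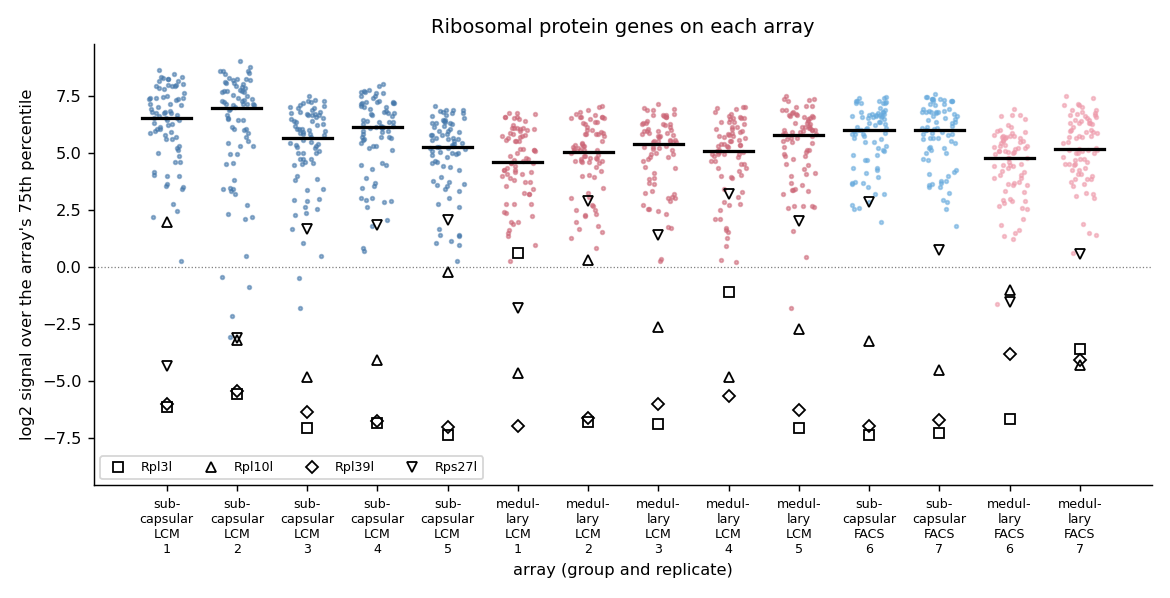
Log2 signal of the 80 ribosomal protein genes over the 75th percentile of each array (vertical axis), by array (horizontal axis, 14 arrays in 4 groups). Dots are genes, open symbols the paralogues Rpl3l, Rpl10l, Rpl39l and Rps27l, and bars the member median, which runs from 4.63 to 6.98 while Rpl39l reaches at most -3.84.

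Loss of signal was rare. Of the 80 genes, 77 (96.25%) were well above background on all 14 arrays, against 39.6% of all 34797 genes. The same held for 8 of 9 elongation factor genes, 13 of 19 other housekeeping genes, 21 of 36 initiation factor genes, 14 of 44 ribosome biogenesis genes and 27 of 76 genes of the mitochondrial ribosome. Among member spots, 2.75% were not above background in subcapsular LCM, 2% in medullary LCM, 2.5% in subcapsular FACS and 0.625% in medullary FACS. Over all genes these shares were 35.2%, 23.8%, 23.7% and 21.8%. All 31 small subunit genes were above background on every array except Rps27l, which was lost on subcapsular LCM replicate 1.

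The 3 genes with any loss are all paralogues of a ubiquitous member. Rpl39l, the testis-enriched paralogue of Rpl39, which lines the exit tunnel, was above background on both medullary FACS arrays and on no other. Rpl3l, the striated muscle paralogue of the peptidyl transferase protein Rpl3, was above background on medullary LCM replicates 1 (0.60) and 4 (-1.11) and medullary FACS replicate 7 (-3.60). On the other 11 arrays it read -7.40 to -5.59, and it entered no comparison. The autosomal paralogue of the X-linked Rpl10, Rpl10l, was above background on all 14 arrays on its brightest probe. Its other probe, from base 926, was so on 7 of 14. On the brightest probe it varied more than most members, from -4.82 to 1.99 over the LCM samples. Rpl3 and Rpl10 themselves stayed within 4.67 to 7.10 and within 5.70 to 8.06.

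The probe behind Rpl39l, at chr16:10174657-10174716 on mm9, is shown with the brightest probe of Rpl39 because their levels lie far apart, at means of -6.06 and 5.47. The Rpl39 probe from base 231 averaged 4.71. That from base 334, which holds AATAAA like the Rpl39l probe, averaged -6.09 and was above background on 2 of 14 arrays. Whether the gap between the printed probes comes from the genes or from the probes was not tested. Capitals mark the AATAAA letters, and 30 of the 60 bases of the Rpl39l probe are given. The Rpl39 probe, whole, is placed at chrX:34622696-34623990, a span longer than its 60 bases.
Rpl39l: cagcagttcagtAATAAAtatgtgaaacct
Rpl39: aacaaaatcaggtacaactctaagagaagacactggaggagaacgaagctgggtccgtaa

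Members varied little between arrays of a group, and what variation they had was largely shared. The SD within groups had a median of 0.63 over 78 members in LCM and 0.40 over 79 in FACS. All genes tested had medians of 1.49 and 0.89, and 73 of 78 and 71 of 79 members lay below these. With the member median of each array subtracted, the median SD of the members was 0.33 in LCM and 0.24 in FACS, while that of all genes was 1.54 and 0.91. In subcapsular LCM the member median had an SD of 0.68 on this scale but 0.13 as unscaled log2 intensity, so much of that shared variation came with the scale. The same SDs were 0.43 and 0.39 in medullary LCM, 0.01 and 0.10 in subcapsular FACS, and 0.27 and 0.27 in medullary FACS. Large and small subunit genes had like spreads, 0.63 and 0.62 in LCM and 0.40 and 0.38 in FACS.

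The other genes of protein synthesis spread more widely, apart from elongation factors, at 0.52 in LCM and 0.27 in FACS. Initiation factors had a median SD of 1.48 and 1.00, biogenesis genes 2.42 and 1.17, and the mitochondrial ribosome 2.56 and 1.10. Signal level moved with these values. The median level in LCM was 5.70 for members, 5.73 for elongation factors, 1.18 for initiation factors, -0.63 for biogenesis genes, -0.58 for the mitochondrial ribosome and -1.51 for all genes, and its part in the spread was not tested.

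**Figure D2:**
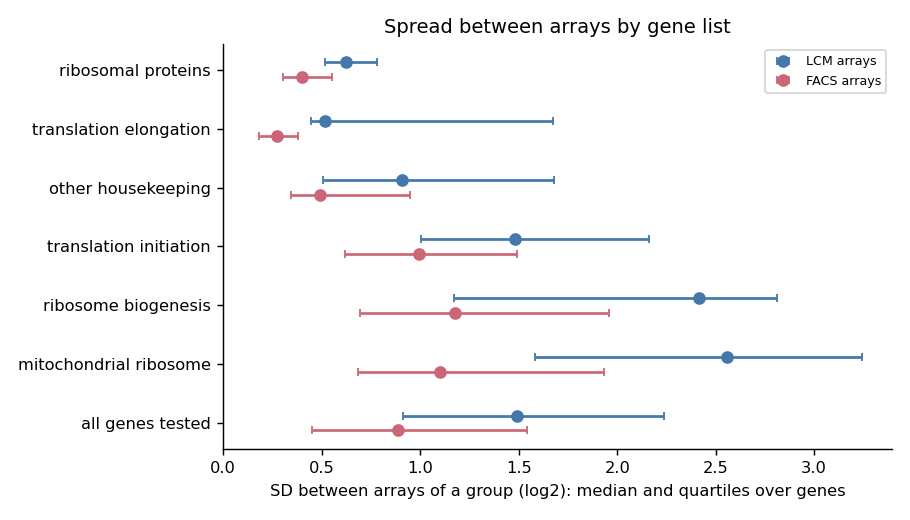
SD between arrays of a group (horizontal axis, log2 units) for 6 gene lists and all genes tested (vertical axis). Points are the median over genes and bars the quartiles, for LCM and FACS arrays; the ribosomal protein genes lie at 0.63 and 0.40, below all genes at 1.49 and 0.89.

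Steadiest in LCM was Rpl5, a protein of the 5S particle, with an SD of 0.32, followed by Rpl23 (0.36), Rpl31 (0.40), and Rpl9 and Rps27 (0.43 each). Rpl5 read 6.24, 5.71, 5.51, 5.72 and 4.99 in subcapsular and 4.79, 4.79, 4.75, 4.94 and 4.88 in medullary samples. Its groups do not overlap, and the medullary values span less than the subcapsular ones. The most variable member that was tested in LCM was Rps27l, the paralogue of Rps27 that p53 induces, with an SD of 2.61. Next came Rpl10l (2.50), Rps13 (2.18) and Rpl22 (1.94), a large subunit protein known to bind viral RNA. Rps13 was at 5.15, 4.76, 4.58 and 3.96 on 4 subcapsular LCM arrays and at -2.17 on replicate 2. The medullary arrays all lay between 3.37 and 4.14.

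The LCM arrays ask whether endothelium of the subcapsular sinus, where afferent lymph arrives, differs from that of the medullary sinus on the way out. Ribosomal protein genes lay lower in the medullary samples as a body, but no member passed the test. Of 78 members tested, 70 were below 0, with a median of -0.87 beside 0.08 for all 27379 genes, of which 47.4% were below 0. limma called 0 members, against 0.175% of all genes, and the smallest adjusted p was 0.341. At an unadjusted p under 0.05, 6 members were lower and 0 higher, where 4.81% and 6.88% of all genes were. The groups of 4 members did not overlap with medullary lower (2.06% of all genes), and of 0 with medullary higher (1.03%). The 4 were Rpl5, Rpl23, Rps15a and Rps27a.

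Rps19, a small subunit protein whose gene is mutated in Diamond-Blackfan anaemia, had the lowest p. It read 4.89, 5.33, 3.85, 4.48 and 3.34 in subcapsular and 2.75, 2.35, 3.08, 2.76 and 3.62 in medullary samples. Subcapsular values were higher apart from replicate 5, which lay under medullary replicate 5. The difference was -1.47 ± 0.53 (SE, n = 5 per sinus, limma adjusted p = 0.341).

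Rpl24, which bridges to the small subunit, had the largest negative difference. Its subcapsular values were 6.34, 3.43, 3.99, 5.21 and 4.62 and its medullary ones 3.22, 2.70, 2.54, 3.06 and 4.12. Only medullary replicate 5 reached into the subcapsular range. It differed by -1.59 ± 0.63 (SE, limma adjusted p = 0.376). Rpl32, Rpl23a, which lies at the exit of the tunnel, and Rps27a, made as a fusion with ubiquitin, differed by -1.50, -1.50 and -1.17, with limma adjusted p from 0.360 to 0.401. The probes of Rpl24 and Rps19, at chr16:55970228-55970287 and chr7:25670166-25670225 on the plus strand of mm9, are printed because these genes lead the LCM comparison.
Rpl24: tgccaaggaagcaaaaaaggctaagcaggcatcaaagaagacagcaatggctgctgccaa
Rps19: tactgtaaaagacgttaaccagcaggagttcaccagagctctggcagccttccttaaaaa

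Among the remaining large subunit genes, Rpl3 differed by -1.02, Rpl5 by -0.80, Rpl10 by -0.70, Rpl11, the partner of Rpl5 in the 5S particle, by -0.51, and Rpl38, needed for translation of homeobox messengers, by -0.10. Of the stalk genes, which recruit elongation factors, Rplp0 differed by -0.50, Rplp1 by -0.84 and Rplp2 by -0.09. In the small subunit Rps6, the substrate of the S6 kinases, differed by -0.87, Rps18 by -1.04, the X-linked Rps4x by -0.86 and Rps3, at the messenger entry channel, by -0.53. None of these passed, with limma adjusted p from 0.472 to 0.983. Large and small subunit genes had like medians, -0.84 over 47 and -0.89 over 31.

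The 8 members above 0 did not pass either. Rps27l had the largest value, 1.93 ± 1.47 (SE, limma adjusted p = 0.654), from -4.35, -3.11, 1.67, 1.84 and 2.05 in subcapsular and -1.81, 2.92, 1.40, 3.20 and 2.03 in medullary samples. Its low values sit on subcapsular replicates 1 and 2 and medullary replicate 1, and the groups overlap. Rps13 (0.57), Rpl4 (0.48), Rpl37 (0.45) and Rpl22 (0.29) would read -0.38, -0.47, -0.50 and -0.66 on the array median as scale, which moves every gene by the same amount. Rps13 was at -0.79 without subcapsular replicate 2, its outlying array.

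The member shift in LCM depended on the scaling in different ways. A scale that is 1 number per array moves all genes alike: the shift was -0.14 when only probes detected on all 14 arrays set the percentile and -1.82 with the array median as scale, but relative to the median of all genes it was -0.95 in both, as in the main setting. Quantile normalization gave -0.13, and -0.12 relative to all genes, and the authors' deposited log2 table -0.12 and -0.11. Within slide 1 alone it was -0.98, and with the array's row as a block -0.61. The median of all probes was -3.81 to -3.02 on the subcapsular and -3.06 to -2.12 on the medullary LCM arrays. The distribution of the array thus moved with the sinus, but also with the row. Subcapsular replicate 5, the only one of its group in row 2, was at -3.02. Medullary replicates 4 and 5, in row 1 of slide 2, were at -2.88 and -3.06. The part of the row in this move was not tested. B cell markers moved as well: their summed signal, in multiples of the 75th percentile, was 247 to 751 in subcapsular and 127 to 208 in medullary samples. The macrophage sums were 399 to 1338 and 317 to 411, and those of blood endothelium 15.2 to 45.8 and 44.1 to 136. Their part in the member shift was not tested. In bulk samples such as these, fewer cells of a type and less RNA per cell cannot be told apart.

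**Figure D3:**
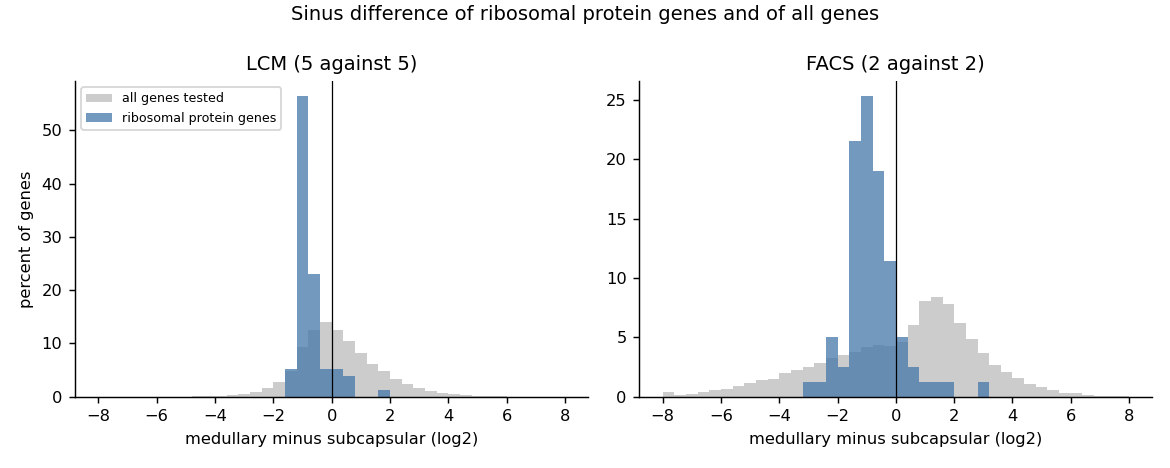
Share of genes (vertical axis, percent) by medullary minus subcapsular difference (horizontal axis, log2 units), for ribosomal protein genes and all genes tested; differences beyond 8 units are drawn in the end bins. The member medians are -0.87 in LCM and -0.88 in FACS, beside 0.08 and 0.74 for all genes.

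The FACS arrays put the same question to sorted cells. Ribosomal protein genes again lay lower in the medullary samples as a body and no member passed. Of 79 members tested, 69 were below 0, with a median of -0.88 beside 0.74 for all 27663 genes, of which 40.5% were below 0. limma called 0 members and 0% of all genes. At an unadjusted p under 0.05 there were 7 members, against 31.9% of all genes, 5 of them lower (13.7%) and 2 higher (18.2%). The groups of 58 members did not overlap with medullary lower, against 26.7% of all genes, and of 4 with medullary higher, against 43%. The large subunit median was -0.86 over 48 genes and that of the small subunit -0.90 over 31.

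The member shift was -1.22 with medullary replicate 6 as the only medullary array and -0.44 with replicate 7 alone, and -1.70 with no scaling. Without medullary replicate 6, Rpl35a was called, and without replicate 7, Rpl10a, Rpl39 and Rps7, beside Rpl39l each time. These fits leave 1 medullary array, which is assumed to vary like the subcapsular ones. With trend and robust eBayes 6 members were called, Rpl23, Rpl35a, Rpl37, Rpl39l, Rps6 and Rps7, with adjusted p from 0.0419 to 0.0479, and with all 14 arrays in 1 model 3 were. B cell markers, although the sort stained for CD45R/B220, summed to 199 and 312 in subcapsular and to 79.2 and 157 in medullary FACS samples. Plasma cell markers summed to 39.2 and 48.0 against 7.97 and 15.1, with 5 of 7 tested below 0. Blood endothelial markers summed to 15.2 and 34.3 against 5.85 and 7.54, but 5 of the 9 tested were below 0 and 4 above. The macrophage sum ran the other way, 295 and 297 against 509 and 523, but of the 9 tested 5 were below 0 and 4 above. That sum rests largely on Itgam, at a mean of 8.05 in subcapsular and 8.96 in medullary samples, while Siglec1 differed by -4.02, neither called. Lymphatic endothelial markers summed to 18.2 and 41.7 against 1.60 and 2.04, but of the 9 tested 5 were below 0 and 4 above, with Pecam1 at -8.22 and Pdpn, the sorted podoplanin, at 4.33, neither called. The part of these cell types in the member values was not tested.

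Rpl37, a zinc-binding protein of the large subunit, was lower on both medullary arrays. It read 4.25 and 4.20 in subcapsular and 1.23 and 1.90 in medullary FACS samples. The groups lie over 2 units apart, while the 2 arrays within a group are close. Its difference was -2.66 ± 0.60 (SE, n = 2 per sinus, limma adjusted p = 0.103).

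Rps7, a small subunit protein needed early in assembly, showed 6.81 and 6.96 against 4.45 and 5.11. It differed by -2.10 ± 0.60 (SE, limma adjusted p = 0.127). Rpl35a, whose start is printed above, showed 5.51 and 5.66 against 3.65 and 3.64 and had the smallest FACS spread of all members, an SD of 0.07. Its difference was -1.94 ± 0.55 (SE, limma adjusted p = 0.127). Rpl22 had the largest negative value, -2.92 ± 1.21 (SE, limma adjusted p = 0.182), from 2.73 and 2.87 against -1.64 and 1.39, where the medullary arrays are far from each other. Rpl4, which reaches into the exit tunnel, and Rps27l differed by -2.18 and -2.27, with limma adjusted p of 0.130 and 0.243.

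A few genes ran the other way. Rpl39l read -6.98 and -6.72 in subcapsular samples, not above background, and -3.84 and -4.08 in medullary ones. Set against the dimmest detected signal of the subcapsular arrays, this is at least 2.45-fold higher, and the fitted difference was 2.89 ± 0.56 (SE, limma adjusted p = 0.0909). It entered the comparison only through the medullary arrays, and so had to differ. Rpl36 read 2.58 and 2.54 against 4.06 and 4.75, higher on both medullary arrays, with a difference of 1.84 ± 0.60 (SE, limma adjusted p = 0.143). Rpl10l (1.24), Rps3 (0.93) and Rpl7a (0.56) were also above 0, but Rpl10l was at -0.40 without medullary replicate 6, Rps3 and Rpl7a at -0.82 and -1.16 over the mean of their probes, and Rpl7a at -0.26 with no scaling, which moves all genes alike.

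The fixed reference members lay on both sides of the member median of -0.88. Rplp0, often used to normalise expression, read 5.15 and 5.02 against 3.70 and 4.51 and differed by -0.98. Rplp1 and Rplp2 differed by 0.29 and 0.47, Rpl3 by -0.50, Rpl5 by -0.67, Rpl11 by -1.17, Rpl32 by -1.56, Rpl41 by 0.26, Rps6 by -1.32, Rps18 by -1.59, Rps19 by -1.36 and Rps4x by -1.13. None passed, with limma adjusted p from 0.175 to 0.800.

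The other genes of protein synthesis also lay mostly below 0 in medullary FACS samples, and none was called. Several of the genes named here were dim in the medullary samples and entered through the subcapsular arrays, and so had to differ. Of 36 initiation factor genes 31 were below 0 (median -2.36). Eif1a and Eif3a were above background on no medullary array, at least 43.1-fold and 19.9-fold lower there, and Eif3k on 1 of 2 (-7.38), each with a limma adjusted p of 0.0646. Ribosome biogenesis genes were below 0 in 36 of 42 cases (median -2.72), with the nucleolar GTPase gene Gnl3 at -6.95 and Rpf1 at -6.39, each above background on 1 of 2 medullary arrays. Of 72 mitochondrial ribosome genes 53 were below 0 (median -1.86), with Mrps14 above background on no medullary array and at least 25.02-fold lower there, and of 9 elongation factor genes 8 (median -0.81), with Eif5a at -3.39 and Eef1a1 at -1.37. Among 17 regulators of ribosome production 13 were below 0 (median -1.37), with Tsc2 at -4.52 and Myc, above background on 1 of 2 medullary arrays, at -7.72. The 19 other housekeeping genes had a median of -1.68, 18 of them below 0, with B2m at -4.07.

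In LCM these lists did not follow a single pattern. The other housekeeping genes had a median of -0.99, 16 of 19 below 0, beside the -0.87 of the members. Initiation factors had a median of -0.87 (25 of 35 below 0) with Eif4a2 at -1.67, elongation factors -0.65 (7 of 9), regulators -0.03 (9 of 18), biogenesis genes -0.02 (24 of 43) with Nop10 at -1.44, and the mitochondrial ribosome 0.76 (26 of 74). Again 0 genes of these lists were called. The 6 genes on the array with a -ps ribosomal protein symbol, among them Rps19-ps4 at -1.22, had a median of -0.90 in LCM and -0.51 in FACS.

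**Figure D4:**
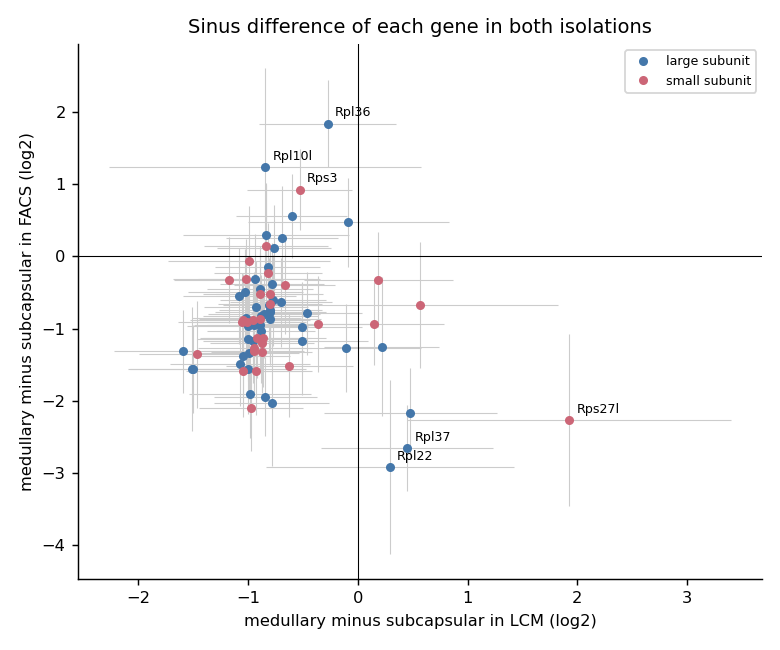
Medullary minus subcapsular difference of each ribosomal protein gene in LCM (horizontal axis) and in FACS (vertical axis), log2 units, for the 78 genes tested in both; bars are standard errors. Most points crowd around -0.9 on both axes, with Rps27l at 1.93 and -2.27, Rpl37 at 0.45 (-0.50 with the array median as scale, which moves all genes alike) and -2.66, and Rpl36 at -0.27 and 1.84, none of them called.

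Whether the sinus difference itself differed between the isolations was tested as an interaction, FACS minus LCM. limma called 0 of 79 members, against 1.3% of 29688 genes, and 4 had an unadjusted p under 0.05 where 21.3% of all genes did, 2 of them lower (8.69%) and 2 higher (12.6%). The member median was 0.02, beside 0.52 for all genes, and it was -0.64 after quantile normalization and -1.29 with no scaling. Rpl39l (2.88) was above background only on the medullary FACS arrays through which it entered, so its value is no more than a description. Rpl37 was at -3.11 ± 1.17 (SE, limma adjusted p = 0.167), from a difference of 0.45 in LCM, where its subcapsular values ran from 0.47 to 4.54, and -2.66 in FACS. It was called after quantile normalization (-3.75, limma adjusted p = 0.0455), in the deposited table (-3.88, 0.0414) and with no scaling (-4.42, 0.0310). Rps27l (-4.20), Rpl22 (-3.22), Rpl4 (-2.66) and Rpl36 (2.12) did not pass, with limma adjusted p from 0.223 to 0.319.

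Sorted and dissected cells, averaged over both sinuses, had ribosomal protein signals at about the same height in the main fit. limma called 0 of 79 members, against 3.87% of 29688 genes, and 5 had an unadjusted p under 0.05 where 16% of all genes did, 3 of them higher (9.44%) and 2 lower (6.6%). Rps7 was called with trend and robust eBayes and, among others, Rpl24 over the mean of its probes. The median difference, FACS minus LCM, was -0.05 beside 0.17 for all genes, with 45 of 79 members below 0 (42.7% of all genes). No member had groups that did not overlap, where 0.461% of all genes lay higher and 0.556% lower throughout. With slide as a block the median was -0.34, and among medullary samples of slide 2 it was -0.23. Relative to all genes these were -0.63 and -0.84, beside -0.22 in the main fit and 0.12 after quantile normalization.

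Rpl27, of the large subunit, had the smallest p. It read 7.42, 6.89, 5.03, 6.11 and 5.17 in subcapsular and 3.89, 4.64, 5.50, 5.30 and 5.91 in medullary LCM samples, and 4.72 and 5.15, then 3.62 and 3.26, in FACS. FACS values were low within each sinus, though subcapsular replicate 7 reached the LCM range. It differed by -1.40 ± 0.48 (SE, limma adjusted p = 0.149), and by 0.13 over the mean of its probes. Rps7 (-0.98), Rpl39 (-0.85) and Rps23 (-0.69), which sits at the decoding centre, were lower in FACS, and Rplp2 (1.29), Rpl36 (1.22), Rps10 (1.19) and Rpl4 (1.15) higher, with limma adjusted p from 0.193 to 0.443. Rpl4 turned to -0.44 among medullary samples of slide 2.

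The other probes of the members mostly told the same story as the chosen ones. Of 102 such probes, 82 lay within 1 unit of the chosen probe's sinus difference in LCM and 72 in FACS, and 7 and 16 were over 2 units away. In LCM all 7 lay above the chosen probe, while in FACS 11 lay below and 5 above. The letters AATAAA or ATTAAA, which mark the end of many messengers, were found on the probe strand in 15 of 80 chosen probes (18.8%), in 49 of 102 other probes (48.0%) and in 13.7% of all 55681 probes.

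The 4 genes with a probe over 4 units from the chosen one in FACS were picked after their values were seen: Rpl13a, Rps6, Rps27a and Rpl6. Rpl13a, which also serves in interferon-driven translational silencing, was nearly level on its brightest probe, from base 511 of the transcript, at 6.15 and 6.04 in subcapsular and 5.56 and 6.33 in medullary FACS samples. On the probe from base 753 it read 5.25 and 5.54 against -1.34 and -2.08, and on that from base 758 it read 4.91 and 5.27 against -2.25 and -0.92. The differences were -0.15, -7.11 and -6.67. In LCM they were -0.82, -0.58 and -0.65, so the probes parted in FACS and not in LCM. The 3 probes are printed because they show the letters behind each value. The first is placed at chr7:52381388-52381529 on mm9, and the others, of which 30 bases are given, hold ATTAAA (capitals). Their printed letters differ before ATTAAA and are the same after it. The probe from base 753 is placed at chr7:52381146-52381205. That from base 758 is placed at chr7:52380920-52380948, a span shorter than its 60 bases.
Rpl13a from base 511: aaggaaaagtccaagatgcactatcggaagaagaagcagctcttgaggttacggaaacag
Rpl13a from base 753: gcatgagtttttATTAAAgtgcaaaccatg
Rpl13a from base 758: tgcttgagttttATTAAAgtgcaaaccatg

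Rps6 differed by -1.32 and -1.07 in FACS on its probes from bases 381 and 589, and by -6.18 on that from base 1274. The last read 2.01 and 1.57 against -3.53 and -5.26, the lowest of these, on medullary replicate 7, not above background. In LCM it ran from -5.84 to 3.43, and it was above background on 10 of 14 arrays in all. Rps27a from base 42 was the reverse, at -5.26 (not above background) and -1.99 against 1.63 and 1.29, while its probes from bases 689 and 761 differed by -0.33 and -0.60. Rpl6 from base 1154 read 0.68 and -0.65 against 2.24 and 2.27, and its 3 other probes differed by -2.04 to -1.85. These values are descriptions with no test.

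**Figure D5:**
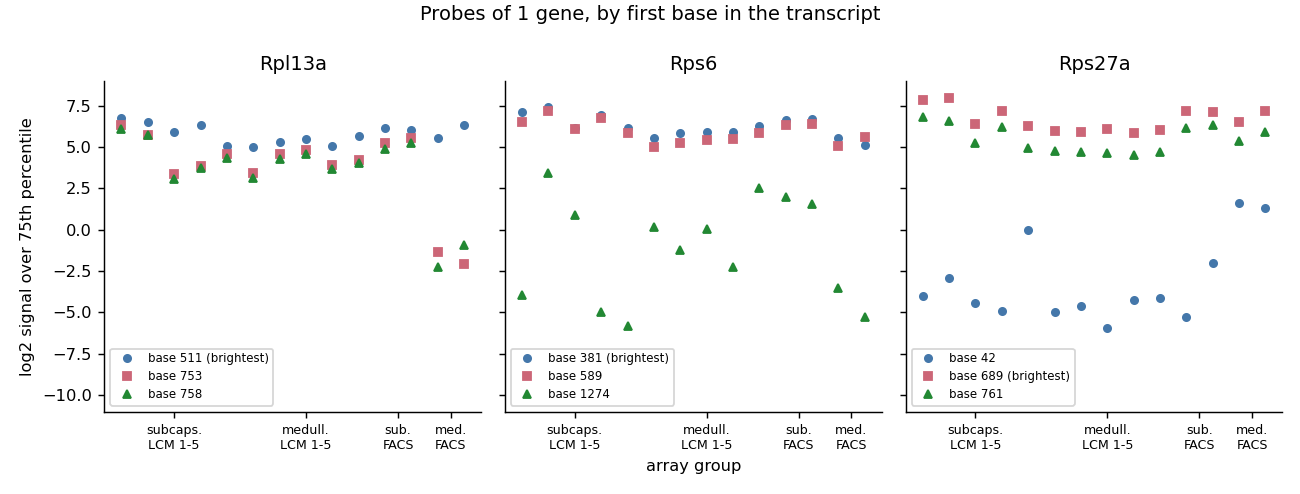
Log2 signal over the 75th percentile (vertical axis) of every probe of Rpl13a, Rps6 and Rps27a on the 14 arrays (horizontal axis, by group), labelled by first base in the transcript. Points are arrays; on the medullary FACS arrays the Rpl13a probe from base 511 reads 5.56 and 6.33 and the other Rpl13a probes read -2.25 to -0.92.

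Some member probes list more than their own gene. Of the 80 chosen probes, 28 carry more than 1 RefSeq accession. For 7 of these RefSeq gives every accession to the same gene, for 7 at least 1 to another gene, and for 14 an accession was not matched. In addition 3 of the 79 whose gene RefSeq places lie on another chromosome in the files: Rps27 (chromosome 9 against 3), Rps29 (2 against 12) and Rps4x (3 against X). What these probes read was not tested. The Rps27 probe, at chr9:114891672-114891731 on mm9, is printed as the example, beside the start of the gene on chromosome 3 shown above.
Rps27: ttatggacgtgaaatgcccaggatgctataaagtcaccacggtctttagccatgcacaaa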

How the data were processed

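Gene expression in lymph node lymphatic endothelium was measured on 14 Agilent 1-colour arrays. Per the file headers, the deposited intensity values came from Feature Extraction 10.7.3.1, with background and spatial trend removed and no scaling between arrays; probe positions are on mm9. A log2 matrix deposited by the authors was an alternative; its making is not given in the sources used here; its column medians are 5.43 on every array.

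Intensities were log2 transformed and the array's 75th percentile over 55681 non-control probes subtracted. Outlier spots were left out and repeat spots averaged. The filter kept a gene for LCM if 3 or more of the 5 arrays of either sinus detected it, for FACS if both did, and for comparisons over 14 arrays if either held. In R 4.3.3, limma 3.58.1 (lmFit, eBayes; data.table version 1.17.8) gave the differences, called at Benjamini-Hochberg adjusted p under 0.05 over all genes. Models of all 14 arrays held a mean for each of the 4 groups, with arrays weighted by isolation. The fits were run on simulated data with known differences, with noise independent between arrays and smaller than the measured spread. The check was on the size of the estimates, so it does not show how many differences these arrays would miss. Figures used matplotlib in Python. The number of arrays limits the precision.

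Named members were the 5 largest differences in each direction per comparison, up to 10 called genes each way, the 6 highest and 6 lowest levels, up to 10 lost on the most arrays, the 5 largest and smallest SDs, 21 fixed genes, and at most 4 genes of each other list by p. Members and lists were chosen with earlier results of these data known. The alternatives tried were background correction (normexp, offset 50), other scalings, filters, probe summaries, eBayes settings, slide, row and replicate blocks, and leaving out each array. The values of 1 member are not reported here.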

Additional observations from a re-analysis of the deposited data

Results flagged for a closer look

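Of 92 groups of values tested among 44 named members, 3 held an array that stood apart from the others by more than the limit of Dixon's ratio, where chance gives about 1 in 20. Rps13 was at -2.17 on subcapsular LCM replicate 2, Rplp1 at 3.34 on medullary LCM replicate 5, and Rps4x at 0.94 on medullary LCM replicate 4.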

How the results depend on the processing

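The count of 0 called members held in LCM under every alternative run. In FACS it was 6 under eBayes with trend and robust and 3 when 1 model held all 14 arrays; for FACS minus LCM it was 1 when only probes detected on all 14 arrays set the percentile, 1 with trend and robust eBayes, 1 with no scaling and 2 with the mean of all probes of a gene; for the interaction it became 1 after quantile normalization, 1 with the deposited table and 2 with no scaling. Leaving out 1 array at a time gave 0 in LCM, FACS minus LCM and the interaction, and 0 to 4 in FACS, with 2 without medullary replicate 6 and 4 without replicate 7, each time counting Rpl39l, which entered only through the medullary arrays.

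The median member difference in LCM (main value -0.87) was -0.13 after quantile normalization, -0.14 with the percentile of detected probes, -0.12 in the deposited table and -1.82 with the array median as scale; relative to all genes, it was -0.95 under the main setting and both single-number scales, and -0.12 and -0.11 under the quantile and deposited values. In FACS (-0.88) it was -1.70 with no scaling and -1.39 with the array median. In the interaction (0.02) it was -0.64 (quantile), -0.60 (detected probes), -0.64 (deposited table) and -1.29 (no scaling). Leaving out 1 array gave -1.08 to -0.70 in LCM, -1.22 to -0.44 in FACS, -0.22 to 0.09 for FACS minus LCM and -0.33 to 0.40 for the interaction. Leaving out Rpl3l, Rpl10l, Rpl39l and Rps27l, no scaling and the array median as scale were chosen after seeing the data; the first left the LCM and FACS medians at -0.87 and -0.89.

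Median member levels in subcapsular LCM, medullary LCM, subcapsular FACS and medullary FACS were 4.49, 3.68, 4.53 and 3.62 with the mean of all probes, and 3.32, 3.13, 3.78 and 2.83 with the percentile of detected probes; with normexp they were 5.77 and 4.66 in the FACS groups. Spots not above background became 1.75%, 1.25% and 1.25% in the first 3 groups with the software's other detection call, and 6.48%, 3.52%, 2.20% and 2.47% over all member probes.

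Directions turned for Rpl22 in LCM, at -0.051 with normexp, -0.27 with the mean of all probes, -0.66 with the array median and -0.11 with row as a block, and, leaving out 1 array at a time, at -0.50 to 0.88, below 0 without subcapsular replicate 2 or 3 (-0.19) or medullary replicate 4 (-0.011). They also turned in LCM for Rps13 (-0.38), Rpl4 (-0.47) and Rpl37 (-0.50) with the array median, Rps13 without subcapsular replicate 2 (range -0.79 to 1.04) and Rpl37 without replicate 3 (range -0.018 to 1.00). In FACS, Rps3 (-0.82) and Rpl7a (-1.16) turned with the mean of all probes, Rpl7a with no scaling (-0.26) and Rpl10l without medullary replicate 6 (range -0.40 to 2.89). For FACS minus LCM, Rpl27 was at 0.13 with the mean of all probes, Rpl10l at 0.39 with slide as a block, at 1.14 among medullary samples of slide 2 and at 0.040 without medullary FACS replicate 7 (range -1.61 to 0.040), and Rpl4 and Rpl22 at -0.44 and -0.027 among medullary samples of slide 2. In the interaction Rps3 (-0.41) and Rpl7a (-0.16) turned with the mean of all probes, and Rpl7a (-0.15) with no scaling. The array median as scale and no scaling move all genes alike, so the turns under them come from that construction; the cause of the others was not tested.

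Same-numbered samples did not deviate together (correlations of -0.020 to 0.0051). In FACS, 2 arrays per sinus force the same value, -0.011, on both numbers. Such correlations cannot tell whether same-numbered samples share an animal, so pairing stays unknown. With the replicate number as a block the calls stayed at 0 and the medians at -0.87 in LCM, -0.88 in FACS and 0.02 in the interaction. With 2 arrays per sinus, FACS resolves only differences far beyond its spread.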
